A study of Bos taurus with 11 samples.

Results

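The unfolded protein response genes described here are 10 of the 25325 gene names on an Agilent bovine microarray, read by 28 of its 43653 non-control probes. A probe was taken where its gene name on the array was HSPA5, HSP90B1, CALR, PDIA4, DNAJB9, HERPUD1, ATF6, XBP1, ATF4 or DDIT3. CALR had 6 probes, HSPA5 had 4, PDIA4, HERPUD1, XBP1 and ATF4 had 3 each, ATF6 and DDIT3 had 2 each, and HSP90B1 and DNAJB9 had 1 each. The arrays measured endometrial biopsies from 11 cows on day 7 of the oestrous cycle, with 1 array for each cow. The subfertile group held 5 cows in which 3 successive embryo transfers or inseminations had failed, although their cycles appeared normal and no abnormality of the genital tract was found. The fertile group held 6 cows that had become pregnant within 3 attempts and did so again at the first embryo transfer that followed the biopsy. The labels name no treatment, strain or age. A biopsy is a mixture of epithelium, stroma and other cells, so that fewer cells of a type and less RNA per cell cannot be told apart.

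The unfolded protein response is the programme by which a cell adjusts the endoplasmic reticulum (ER) when unfolded proteins collect in it. In mammals 3 sensors in the ER membrane start it: IRE1 (ERN1) splices the mRNA of XBP1, PERK (EIF2AK3) phosphorylates the initiation factor eIF2 alpha and so favours translation of ATF4, and ATF6 is cut to release a transcription factor. These factors raise the genes of ER chaperones, folding enzymes and ER-associated degradation, and ATF4 raises DDIT3 (CHOP). The endometrial glands are secretory epithelium, and their proteins pass through the ER. The probes read total transcript levels, and did not measure XBP1 splicing, ATF6 cleavage or phosphorylation.

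Each value below is the log2 processed signal of a probe minus the 75th percentile of the non-control probes on its array, and each difference is subfertile minus fertile (n = 5 and n = 6 cows) with its standard error. The number of arrays limits the precision. Groups were compared with limma, with p-values adjusted by Benjamini-Hochberg over the 31876 probes that passed a filter on dim signal. Levels of different probes share no common scale, and only their differences between groups were set side by side.

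The groups also differed in ways that touch every value below. The median processed signal of an array was between 54.3 and 92.7 in subfertile cows, against 161 to 452 in fertile cows (log2 difference of -1.93; two-sided exact permutation test over all splits of the cows, p = 0.00216, the smallest these groups allow). No known slide or scan day held both groups, and all 5 subfertile arrays were scanned on a single day. Slide, scan day and group therefore cannot be told apart. The marker lists were read with 1 probe for each gene. Over 18504 genes read in this way, 14.2% were higher in subfertile cows and 7.88% lower at an adjusted p below 0.05 (limma). Of the epithelial marker list, 12 of 14 genes were tested, 7 rose in subfertile cows and 0 fell (11 of the 12 differences lay above 0). The list's mean level, centred over the 11 arrays, lay between 0.10 and 0.42 in subfertile cows, against -0.63 to -0.08 in fertile cows, with no overlap. Of 12 stromal markers 11 were tested, 2 rose and 2 fell, and the list's level was -0.42 to 0.06 in subfertile cows, against -0.02 to 0.18 in fertile cows. B and plasma cells, which are rich in ER, had 8 of 11 markers tested, 1 higher and 1 lower, with levels of -0.75 to 0.92 in subfertile cows and -0.71 to 0.29 in fertile cows. The ciliated cell list had 7 of 8 genes tested, 3 higher and 0 lower, all 7 above 0 with a median difference of 1.13 (epithelial list 0.54), and levels of -0.48 to 1.45 in subfertile cows, against -0.93 to 0.11 in fertile cows. The smooth muscle list had all 7 genes tested and above 0, 2 higher and 0 lower, with a median of 0.82 and levels of -0.13 to 1.97 in subfertile cows, against -1.09 to 0.59 in fertile cows. Of the endothelial, macrophage, T and NK cell and erythroid lists, with 7, 8, 7 and 4 genes tested, 2, 0, 1 and 1 genes rose and 0, 1, 0 and 1 fell. The plasma cell receptor TNFRSF17 and the B cell gene CD79B had no probe of that name. The part of cell composition, brightness, slide and scan day in the results below was not tested, beyond the fits given beside them.

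All 28 probes passed the filter, and 26 were well above background on all 11 arrays. In subfertile cows 10 of the 28 probes were higher (35.7%) and 0 were lower at an adjusted p below 0.05 (limma), while 18 did not pass. Over all tested probes 22.2% passed, 14.8% higher and 7.38% lower. At an unadjusted p below 0.05, 14 of the 28 probes were higher and 1 was lower. The share of all tested probes at an unadjusted threshold is not given here, so this count and the later unadjusted counts have no baseline. The median difference of the 28 probes was 0.29, against 0.07 over all tested probes. The groups did not overlap for 8 probes (28.6%), against 13.5% of all tested probes. Probes of a gene are not independent: CALR alone supplied 5 of the 10 calls, and outside CALR 5 of 22 probes passed, all higher, against the array's 22.2% in either direction and 14.8% higher. By gene, 5 of the 10 had at least 1 probe that passed (CALR, HERPUD1, HSPA5, XBP1 and ATF6), and 5 had none. A gene with more probes has more chances of a call, and the array's share of genes with any called probe is not given here.

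**Figure D1:**
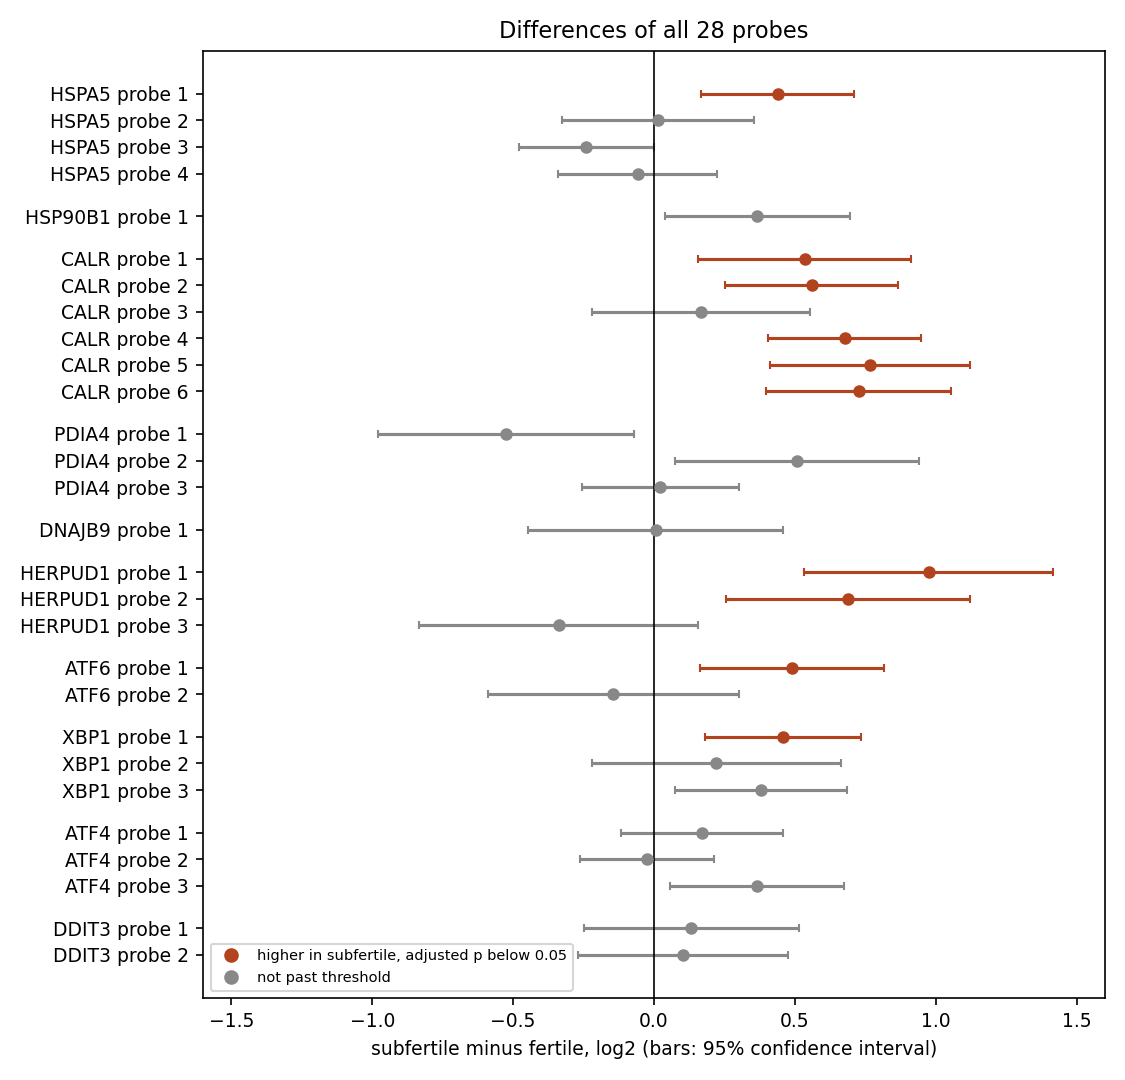
Difference of each of the 28 probes, subfertile minus fertile, on the log2 scale (x axis), with probes grouped by gene and numbered from the 5′ end of the transcript. Points are limma estimates with 95% confidence intervals, and orange marks the 10 probes that passed an adjusted p of 0.05, 5 of them in CALR.

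Among the ER chaperones, CALR was higher in subfertile cows and HSPA5 was higher at 1 of its 4 probes. CALR is calreticulin, a calcium-binding chaperone of the ER lumen that holds glycoproteins until they have folded, and HSPA5 is BiP, the main Hsp70 chaperone of the ER and the protein that keeps the stress sensors inactive. Both lists of probes below show a set that passed the threshold beside a probe of the same gene that did not. The sequences are those of the array design, 60 bases each and 5′ to 3′, with positions on build Btau_3.1, minus strand in both genes. CALR probe 1 lies at chr7:10885510-10885659 and probe 2 at chr7:10885455-10885514, and both passed, while probe 3 at chr7:10884255-10884931 did not (probes 1 and 3 extend over 150 and 677 bases of the genome, more than their own 60). HSPA5 probe 1 at chr11:99546701-99546760 passed and HSPA5 probe 3 at chr11:99543579-99543638 did not.
CALR probe 1: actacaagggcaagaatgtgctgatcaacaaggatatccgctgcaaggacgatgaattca
CALR probe 2: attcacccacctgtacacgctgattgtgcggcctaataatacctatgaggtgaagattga
CALR probe 3: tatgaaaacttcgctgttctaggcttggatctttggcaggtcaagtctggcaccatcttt
HSPA5 probe 1: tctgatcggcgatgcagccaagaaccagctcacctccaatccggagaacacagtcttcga
HSPA5 probe 3: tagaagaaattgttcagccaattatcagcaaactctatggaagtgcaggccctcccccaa

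The brightest CALR probe, probe 5 (chr7:10883329-10883388), measured 7.11, 6.81, 6.65, 6.91 and 6.81 in subfertile cows 1 to 5. In the fertile cows it was 5.81 at the lowest, 5.92 at the median and 6.56 at the highest. The lowest subfertile cow lay above the highest fertile cow, although fertile cows 4 and 6 stood nearer to the subfertile range than the other fertile cows. The difference was 0.77 ± 0.16, a 1.70-fold higher signal (adjusted p = 0.00785). Probe 6 (chr7:10883318-10883377) shares 49 of its 60 bases with probe 5 and is close to a repeat of it, with a difference of 0.73 ± 0.15 (adjusted p = 0.00708). Probe 4 (chr7:10883480-10883539) measured 5.66, 5.38, 5.21, 5.50 and 5.39 in subfertile cows, against 4.47, 4.73 and 5.03 as the lowest, median and highest in fertile cows. The groups did not overlap, and the difference of 0.68 ± 0.12 had the smallest adjusted p of the 28 probes (0.00410).

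Nearer the 5′ end, CALR probe 2 measured 0.25, -0.09, 0.10, 0.33 and -0.15 in subfertile cows, against -0.90, -0.44 and -0.22 as the lowest, median and highest in fertile cows. Again the groups did not overlap, and the difference was 0.56 ± 0.14 (adjusted p = 0.0169). Probe 1 rose by 0.53 ± 0.17 (adjusted p = 0.0458), and subfertile cow 5, at -1.16, lay below fertile cows 1 and 2. Probe 3 differed by 0.17 ± 0.18 (adjusted p = 0.525). The call of probe 1 was lost in 8 of the 11 fits that omitted 1 cow (largest adjusted p = 0.0959), and with median centring and the slide and replicate blocks. With all cows, 5 of the 6 probes rose. The mean of all 6 probes rose by 0.57 (adjusted p = 0.00630), and CALR was the only 1 of the 10 genes whose mean over its probes passed. Under quantile normalization the 2 brightest probes lost the call, at 0.08 (adjusted p = 0.742) for probe 5 and 0.24 (adjusted p = 0.246) for probe 6.

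HSPA5 differed by probe. Probe 1, near the 5′ end, measured -1.09, -1.63, -1.62, -1.28 and -1.64 in subfertile cows. Its fertile values were -2.10 at the lowest, -1.86 at the median and -1.79 at the highest. The groups did not overlap, with subfertile cows 1 and 4 well above the other subfertile cows, and the difference was 0.44 ± 0.12 (adjusted p = 0.0272). Without subfertile cow 1 or 4 that call was lost, and the largest adjusted p on leaving out a cow was 0.0585. It was also lost with median centring, with the slide, scan day and replicate blocks, and with the epithelial minus stromal marker covariate. The brightest HSPA5 probe, probe 4 (chr11:99543141-99543200), measured 5.26, 4.85, 4.81, 5.14 and 4.98 in subfertile cows, against 4.82, 5.08 and 5.36 as the lowest, median and highest in fertile cows. Here the groups overlapped over nearly their whole range, and the difference was -0.06 ± 0.13 (95% interval -0.34 to 0.22, adjusted p = 0.776). Probe 2 (chr11:99544070-99544547) differed by 0.01 ± 0.16 and probe 3 by -0.24 ± 0.11 (adjusted p = 0.958 and 0.137). Under quantile normalization probes 3 and 4 were called lower, at -0.36 and -0.38.

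**Figure D2:**
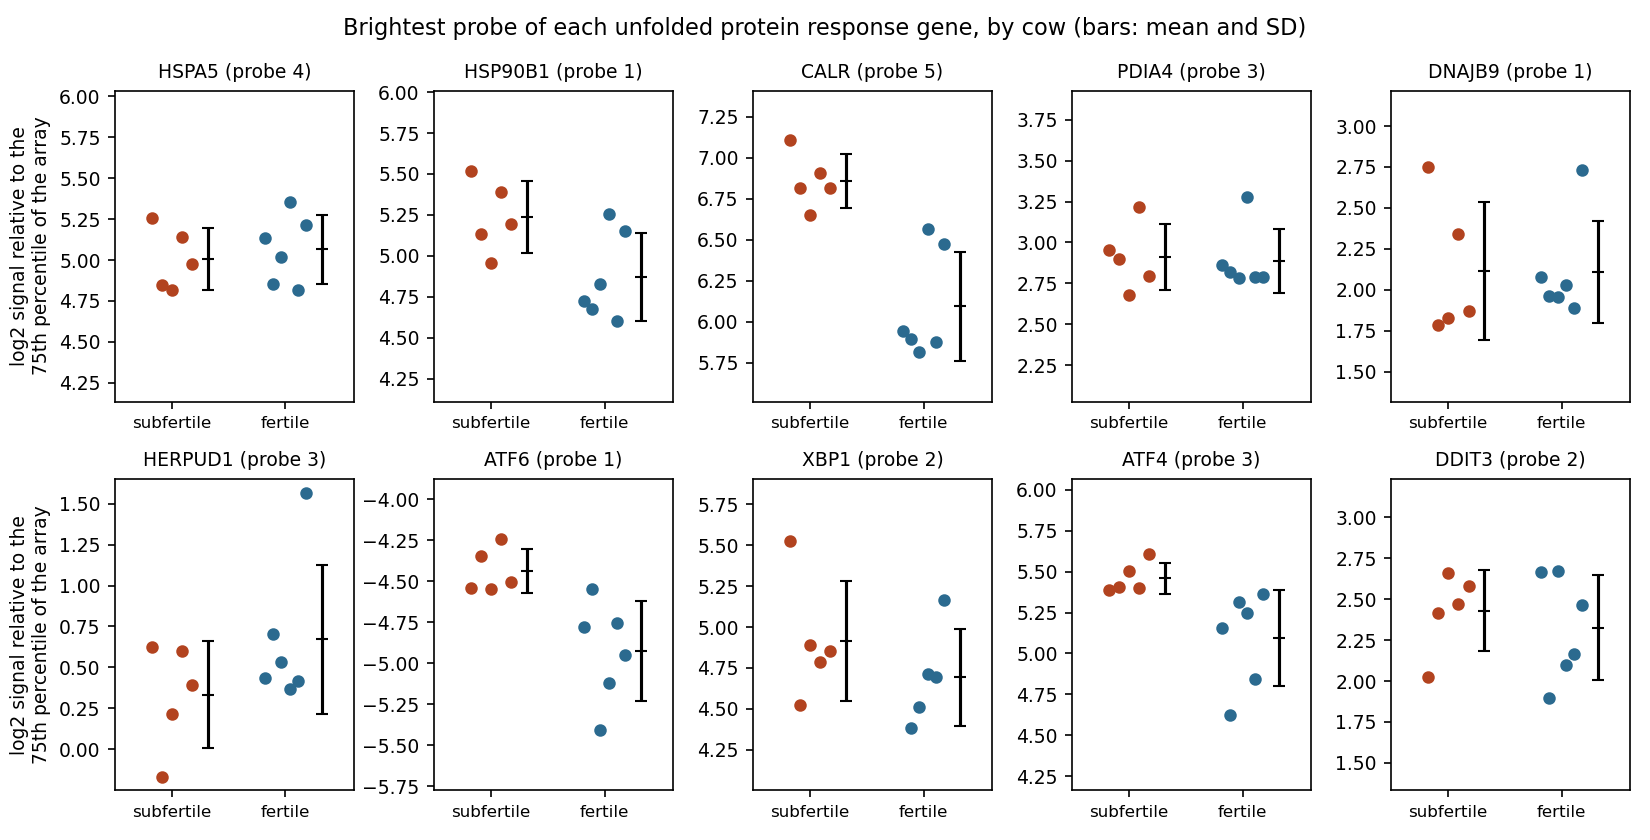
Log2 signal relative to the 75th percentile of the array (y axis, its own range of equal length in each panel) for the brightest probe of each gene, 1 point for each of 5 subfertile and 6 fertile cows, with bars for mean and SD. XBP1 probe 2 has no value in fertile cow 1, so its panel has 5 fertile points. CALR probe 5 and ATF4 probe 3 are the panels in which every subfertile cow lies above every fertile cow, and the fertile point far above its group for DNAJB9 and for HERPUD1 is fertile cow 6 in both.

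The other chaperone and folding genes did not pass. HSP90B1 is GRP94, the Hsp90 chaperone of the ER. Its probe (chr5:72643879-72643938, plus strand) measured 5.52, 5.13, 4.96, 5.39 and 5.20 in subfertile cows, against 4.60, 4.78 and 5.25 as the lowest, median and highest in fertile cows. Subfertile cows 1 and 4 were the highest of all 11, while fertile cows 4 and 6 lay within the subfertile range, and the difference was 0.37 ± 0.15 (95% interval 0.04 to 0.70, adjusted p = 0.101). DNAJB9 is ERdj4, an ER co-chaperone of BiP. Its probe (chr4:61879654-61879713, minus strand) measured 2.75, 1.78, 1.83, 2.34 and 1.87 in subfertile cows, against 1.89, 1.998 and 2.73 as the lowest, median and highest in fertile cows. The groups overlapped and each held a cow far above the rest, subfertile cow 1 and fertile cow 6. The difference was 0.01 ± 0.21 (95% interval -0.45 to 0.46, adjusted p = 0.987), and it fell below 0 with normexp, quantile and median scaling.

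PDIA4, a protein disulfide isomerase of the ER, had 3 probes that pointed in different directions, none past the threshold. All lie on the minus strand of chromosome 4, probe 1 at chr4:116516061-116516120, probe 2 at chr4:116509122-116509181 and probe 3 at chr4:116504876-116504935. The first pair is printed because the differences had opposite signs.
PDIA4 probe 1: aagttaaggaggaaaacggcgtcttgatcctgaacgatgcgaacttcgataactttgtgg
PDIA4 probe 2: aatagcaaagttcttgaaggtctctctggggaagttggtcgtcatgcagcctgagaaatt
Probe 1 measured -1.66, -2.10, -2.85, -2.28 and -2.21 in subfertile cows, against -2.23, -1.67 and -1.25 as the lowest, median and highest in fertile cows. The difference was -0.53 ± 0.21 (adjusted p = 0.0899). Probe 2 measured -1.40, -2.12, -2.18, -1.68 and -2.19 in subfertile cows, against -3.06, -2.34 and -2.06 in fertile cows, a difference of 0.51 ± 0.20 (adjusted p = 0.0878). For both probes the groups overlapped. Probe 3, the brightest, measured 2.68 to 3.22 in subfertile cows and 2.78 to 3.28 in fertile cows, and differed by 0.02 ± 0.13 (95% interval -0.26 to 0.30, adjusted p = 0.918).

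HERPUD1, a protein of the ER membrane that takes part in ER-associated degradation, held the largest difference of the 28 probes. It was higher in subfertile cows at its 2 probes nearer the 5′ end and not at the third. Probe 1 lies at chr18:24545505-24545564 and probe 2 at chr18:24550240-24550296 (plus strand), starting at bases 588 and 1115 of the annotated transcript, and both are printed since they carry the increase. Probe 3 starts at base 1661 (chr18:24552895-24552954).
HERPUD1 probe 1: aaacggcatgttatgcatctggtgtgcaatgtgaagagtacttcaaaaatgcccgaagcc
HERPUD1 probe 2: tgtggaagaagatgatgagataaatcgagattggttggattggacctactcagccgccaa
HERPUD1 probe 1 measured -0.29, -0.20, -0.62, -0.38 and -0.79 in subfertile cows. In fertile cows it was -1.93 at the lowest, -1.49 at the median and -0.91 at the highest. All subfertile cows lay above all fertile cows, and the difference was 0.97 ± 0.20, a 1.96-fold higher signal (adjusted p = 0.00714). Within the fertile group the 2 cows on one slide (2 and 5) exceeded the 2 cows on another (1 and 3) by 0.64 at this probe; these slides also differed in scan day and held different cows, so that slide, day and cow cannot be told apart. Probe 2 measured 0.26, 0.11, -0.24, -0.03 and -0.42 in subfertile cows, against -1.11, -0.88 and -0.10 in fertile cows. Only fertile cow 6 reached into the subfertile range, and the difference was 0.69 ± 0.20 (adjusted p = 0.0293), a call that was lost on leaving out 6 of the 11 cows in turn (largest adjusted p = 0.0715). Probe 3 measured 0.63, -0.17, 0.21, 0.60 and 0.39 in subfertile cows, against 0.37, 0.48 and 1.57 in fertile cows. The groups overlapped, with fertile cow 6 far above all others, and the difference was -0.34 ± 0.23 (95% interval -0.83 to 0.16, adjusted p = 0.303).

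Of the sensor and transcription factor genes, XBP1 and ATF6 each had 1 probe that rose, and ATF4 and DDIT3 had none. XBP1 encodes the factor that IRE1 activates by splicing. XBP1 probe 1 (chr17:71586664-71586723, minus strand) measured 2.21, 1.73, 1.68, 2.01 and 1.57 in subfertile cows, against 1.27, 1.36 and 1.53 as the lowest, median and highest in fertile cows. The groups did not overlap, although subfertile cow 5 lay just above the highest fertile cow, and the difference was 0.46 ± 0.13 (adjusted p = 0.0251). Without subfertile cow 4 the adjusted p was 0.0536. This call was also lost with median centring, with the slide, scan day and replicate blocks, and with the epithelial minus stromal marker covariate. Probe 3 (chr17:71585920-71585979) measured 4.78, 4.28, 4.28, 4.51 and 4.35 in subfertile cows, against 3.81, 3.99 and 4.47 in fertile cows, a difference of 0.38 ± 0.14 (adjusted p = 0.0709). Only fertile cow 6 reached into the subfertile values. Probe 2 (chr17:71585948-71586007), which shares 32 bases with probe 3, differed by 0.22 ± 0.20 (adjusted p = 0.454, 5 fertile arrays, since a spot marked as an outlier was left out in fertile cow 1). The 3 XBP1 differences all lay above 0, and 1 passed, whose probe is printed here (probe 2 was at -0.03 under quantile normalization).
XBP1 probe 1: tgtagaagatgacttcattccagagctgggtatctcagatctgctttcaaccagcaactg

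ATF6 encodes the sensor that is cut in the Golgi. Its probe 1 (chr3:8306160-8306219, minus strand) measured -4.54, -4.35, -4.55, -4.24 and -4.51 in subfertile cows, against -5.41, -4.87 and -4.54 as the lowest, median and highest in fertile cows. Fertile cow 2 reached the subfertile range, the other fertile cows lay below it, and the difference was 0.49 ± 0.15 (adjusted p = 0.0367). These signals were dim, with processed signals of 22.7 to 36.4 in subfertile cows and 36.4 to 187 in fertile cows before scaling, and 9 of the 11 fits that omitted 1 cow lost the call. Probe 2 (chr3:8306002-8306061) was well above background in 4 of 5 subfertile cows and differed by -0.14 ± 0.20 (adjusted p = 0.643). Normexp background correction turned that difference to 0.95.

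ATF4 encodes the factor whose translation rises when PERK is active. Its probe 3 (chr5:118120352-118120411, plus strand) measured 5.39, 5.40, 5.50, 5.40 and 5.61 in subfertile cows, against 4.63, 5.20 and 5.37 as the lowest, median and highest in fertile cows. The groups did not overlap, the subfertile cows lay close together and fertile cows 2 and 5 stood lowest, but the difference of 0.37 ± 0.14 did not pass (95% interval 0.06 to 0.68, adjusted p = 0.0832). Fertile cows 2 and 5 shared a slide and lay 0.50 below cows 1 and 3, which shared another. Probes 1 and 2 differed by 0.17 ± 0.13 and -0.02 ± 0.11 (adjusted p = 0.374 and 0.892).

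DDIT3 encodes CHOP, the factor tied to cell death under lasting ER stress. Its brighter probe, probe 2 (chr5:60419476-60419535, plus strand), measured 2.02, 2.41, 2.66, 2.47 and 2.58 in subfertile cows, against 1.90, 2.31 and 2.67 as the lowest, median and highest in fertile cows. The groups shared nearly the same range, and the difference was 0.10 ± 0.17 (95% interval -0.27 to 0.48, adjusted p = 0.698). Probe 1 differed by 0.13 ± 0.18 (95% interval -0.25 to 0.52, adjusted p = 0.618). Fertile cows 2 and 5 lay 0.64 below cows 1 and 3 at probe 2, more than the difference between the groups.

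Cow by cow, for the brightest probe of each gene, subfertile cows 1 to 5 lay above the mean of all cows in 9, 6, 5, 9 and 6 of the 10 genes. Fertile cows 1 to 6 did so in 2, 2, 3, 4, 0 and 8 genes, where fertile cow 1 had no value for XBP1. Subfertile cow 1 was the highest of its group in 6 genes and subfertile cow 3 the lowest in 5, and fertile cow 6 exceeded the mean in more genes than subfertile cows 2, 3 and 5. Only 2 of the 10 brightest probes passed (CALR and ATF6), against 22.1% of 18504 genes read in the same way. At least 1 probe passed in 5 genes, so the count by gene depended on the probe.

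Within 5 of the 8 genes with several probes, differences of both signs were measured. To test this, the value of the 5′-most minus the 3′-most probe was taken in each cow and fitted with limma over the 7342 transcripts with at least 2 tested probes. This contrast was chosen after the differences had been seen. Its level mixes the response of 2 probes, and only its change between groups was read. Over all transcripts 29.3% passed, and 4 of the 8 genes did. HERPUD1 measured -0.91, -0.03, -0.83, -0.98 and -1.19 in subfertile cows, against -2.55 to -1.61 in fertile cows. The groups did not overlap, and the change was 1.31 ± 0.22 (adjusted p = 0.00190). HSPA5 measured -6.35, -6.47, -6.43, -6.42 and -6.61 in subfertile cows, against -7.31 to -6.68 in fertile cows, again with no overlap and a change of 0.50 ± 0.13 (adjusted p = 0.0132). ATF6 changed by 0.63 ± 0.18 (adjusted p = 0.0247) and PDIA4 by -0.55 ± 0.17 (adjusted p = 0.0338). The 2 probes compared started from 158 (ATF6) to 2012 (HSPA5) bases apart. Those of CALR (-0.19), ATF4 (-0.20), XBP1 (0.08) and DDIT3 (0.03) did not pass, with adjusted p between 0.237 and 0.851.

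HERPUD1 and HSPA5 kept the contrast without any 1 cow, under quantile normalization and with a random slide term (adjusted p = 0.0113 and 0.0216). With a scan day term neither passed (adjusted p = 0.0520 and 0.101). Both also passed under normexp, with changes of 1.33 and 0.67. Normexp adds an offset, which lifts dim probes more on dimmer arrays, and the subfertile arrays were dimmer. In both genes the probe nearer the transcript start was the dimmer of the pair. The normexp fits therefore cannot decide whether a contrast holds. Under normexp ATF6 was at 0.14 (adjusted p = 0.104) and PDIA4 at -0.10 (adjusted p = 0.547), and under quantile normalization PDIA4 did not pass (adjusted p = 0.0653). ATF6 lost the call without 3 of the cows in turn and PDIA4 without 8, and both lost it with the slide term (adjusted p = 0.100 and 0.144). With 29.3% of transcripts past the threshold, unequal change between probes of a transcript was common on these arrays. The probes compared can differ widely in level, and the groups differed in brightness. Whether the transcript itself changed unequally, or the probes responded differently at low signal, was not tested. The position of each probe relative to exons or the coding sequence was not analysed here. The polyadenylation motifs AATAAA or ATTAAA, read on the probe's own strand, were held by 3 of the 28 probes (CALR probe 6, XBP1 probe 3 and ATF4 probe 3) and by 12.7% of all non-control probes.

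**Figure D3:**
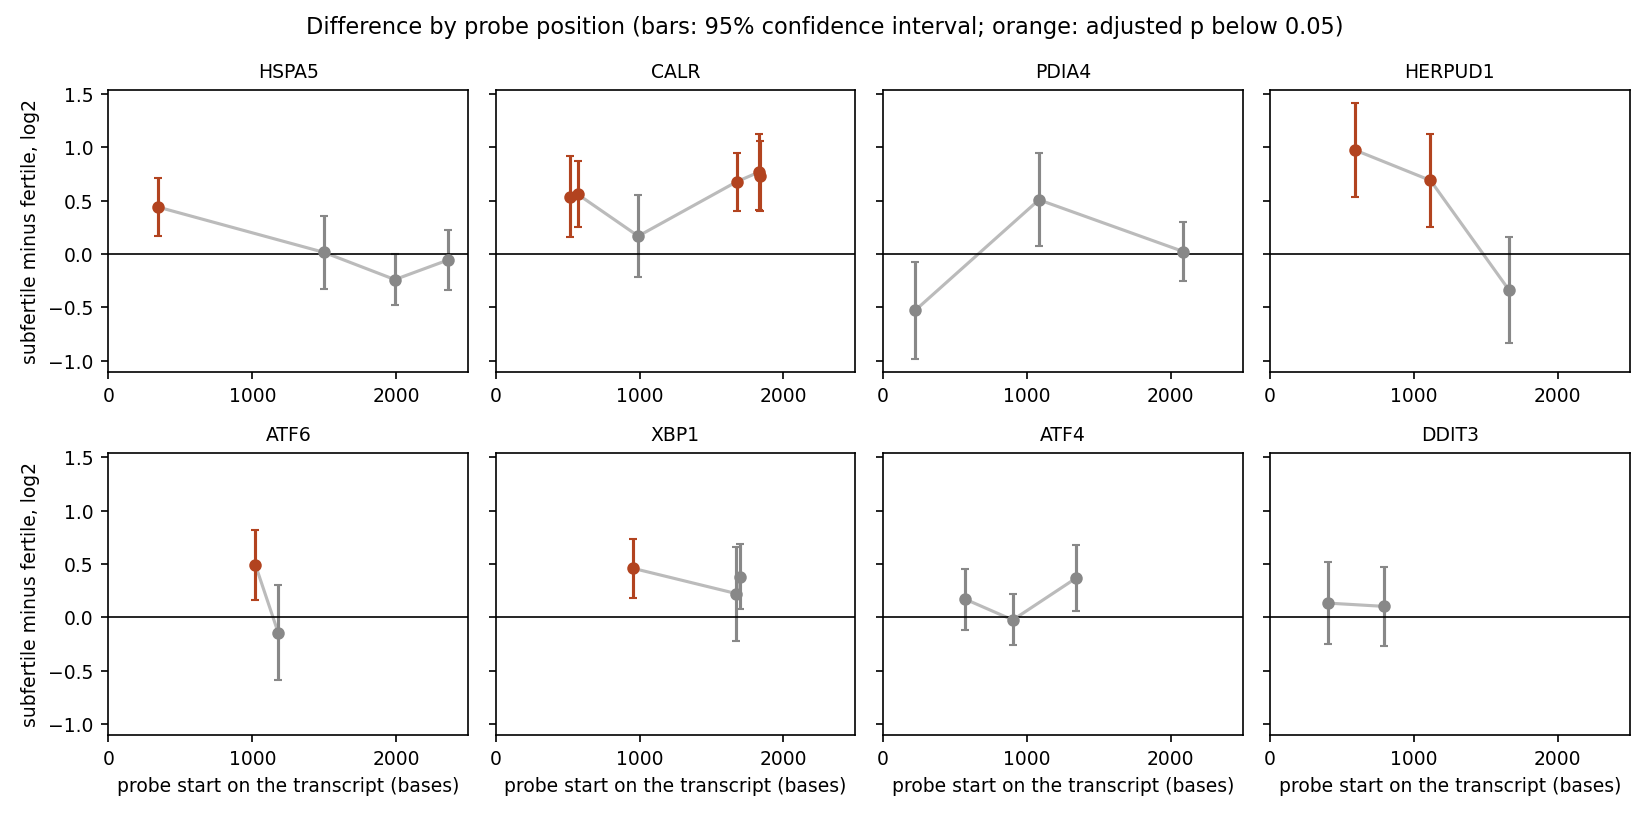
Difference of each probe, subfertile minus fertile on the log2 scale (y axis), against the start of the probe on its annotated transcript in bases (x axis), for the 8 genes with several probes. Bars are 95% confidence intervals; HERPUD1 falls from 0.97 at base 588 to -0.34 at base 1661, while CALR stays between 0.17 and 0.77.

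Other genes of the response were read from 5 lists, with the brightest tested probe of each gene. Of 101 listed genes, 95 were on the array and 89 were tested: 12 rose in subfertile cows, 10 fell and 67 did not pass. With 1 probe for each of 18504 genes, 14.2% rose and 7.88% fell over the array (22.1% in all), so that 12 of 89 lay near the array's share of increases and 10 of 89 above its share of decreases. Their median difference was 0.09, against 0.06 over all genes and 0.16 over the 10 members read in the same way. Under quantile normalization 5 of the 89 were higher and 14 lower, while over the array 3243 of 31876 probes were higher and 3146 lower.

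In the list of sensors and transcription factors, 9 of 11 genes were tested, 3 rose and 0 fell, and all 9 differences lay above 0 (median 0.30), as were 10280 of the 18504 genes over the array. MBTPS1, a protease that cuts ATF6 and is named for its change of sign, was at 0.03 here and at -0.14 under quantile normalization. CREB3L1 and CREB3, ER-bound transcription factors related to ATF6, rose by 0.53 ± 0.15 and 0.35 ± 0.10 (adjusted p = 0.0240 and 0.0295). The CREB3L1 probe was dim, with means of -4.69 in subfertile and -5.22 in fertile cows. With normexp the differences were 1.18 for CREB3L1 and 0.26 for CREB3. EIF2S1, the eIF2 alpha subunit that PERK phosphorylates, rose by 0.45 ± 0.14 (adjusted p = 0.0362). NFE2L2, another substrate of PERK, differed by 0.30 ± 0.11 (adjusted p = 0.0691). The sensor EIF2AK3 differed by 0.06 ± 0.12 (adjusted p = 0.735), and ERN1 was well above background on at most 2 arrays and was not tested. All 3 calls of this list were lost on omitting some single cow (largest adjusted p = 0.0566 for CREB3L1, 0.0690 for CREB3 and 0.0869 for EIF2S1), and quantile normalization ended those of CREB3L1 and CREB3 (adjusted p = 0.0723 and 0.0670).

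Among ER chaperones and folding enzymes 23 of 26 genes were tested, 2 rose and 4 fell (median 0.02). HYOU1, a large Hsp70-like chaperone of the ER, rose by 0.997 ± 0.20 (adjusted p = 0.00673), with values of -2.21 to -1.69 in subfertile cows, against -3.31 to -2.14 in fertile cows. ERO1A, the oxidase that recharges protein disulfide isomerases, fell by 1.84 ± 0.40 (adjusted p = 0.00824), and all 3 of its probes fell. TXNDC11, a thioredoxin-domain protein, had a difference of -1.04 ± 0.22 and FKBP14, a prolyl isomerase of the ER, one of -0.56 ± 0.11 (adjusted p = 0.00703 and 0.00447). For these probes of TXNDC11 and FKBP14 the groups did not overlap, but TXNDC11 had a further tested probe with a difference above 0 that did not pass.

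Among genes of ER-associated degradation 18 of 20 were tested, 2 rose and 3 fell (median 0.04). Members of a single ligase complex went opposite ways: SEL1L, its adaptor, rose by 0.65 ± 0.13 and SYVN1 (HRD1), its ubiquitin ligase, had a difference of -0.49 ± 0.10 (adjusted p = 0.00555 and 0.00683). SEL1L values were -3.73 to -3.31 in subfertile cows and -4.43 to -3.86 in fertile cows, while SYVN1 values were 3.45 to 3.67 in subfertile cows and 3.90 to 4.29 in fertile cows, so neither overlapped. With normexp the differences were 1.03 for SEL1L, at low signal, and -0.59 for SYVN1. EDEM3, which trims mannose from misfolded glycoproteins, fell (-0.42 ± 0.10, adjusted p = 0.0143), and DERL1, a channel component, rose (0.39 ± 0.12, adjusted p = 0.0353). The DERL1 call was lost on omitting some single cow (largest adjusted p = 0.0791) and under quantile normalization (adjusted p = 0.0842), and 1 of the 4 EDEM3 probes lay above 0.

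In the list of translocon and secretory entry genes 19 of 21 were tested, 3 rose and 1 fell (median 0.12). SSR2 and SSR3, subunits of the translocon-associated complex, rose by 0.48 ± 0.11 and 0.54 ± 0.15 (adjusted p = 0.0121 and 0.0268), although SSR2 was at -0.09 under quantile normalization. KDELR2, a receptor that returns ER proteins from the Golgi, rose by 0.35 ± 0.10, and SPCS3, a signal peptidase subunit, had a difference of -0.36 ± 0.10 (adjusted p = 0.0293 and 0.0282). Among targets of ATF4 and DDIT3, 20 of 23 genes were tested, 2 rose and 2 fell (median 0.02). SLC7A5, an amino acid transporter, rose by 1.08 ± 0.28 and CEBPB, a transcription factor, by 1.92 ± 0.55, the larger with overlapping groups (adjusted p = 0.0180 and 0.0293). The receptor gene TNFRSF10D and the stress gene SESN2 fell, with differences of -0.80 ± 0.19 and -0.36 ± 0.10 (adjusted p = 0.0114 and 0.0297), and the second SESN2 probe lay above 0. The calls of SSR3, KDELR2, SPCS3, CEBPB and SESN2 were lost on omitting some single cow (largest adjusted p between 0.0625 and 0.0800), and quantile normalization also ended those of SSR2, SSR3 and KDELR2 (adjusted p = 0.516, 0.0763 and 0.238).

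**Figure D4:**
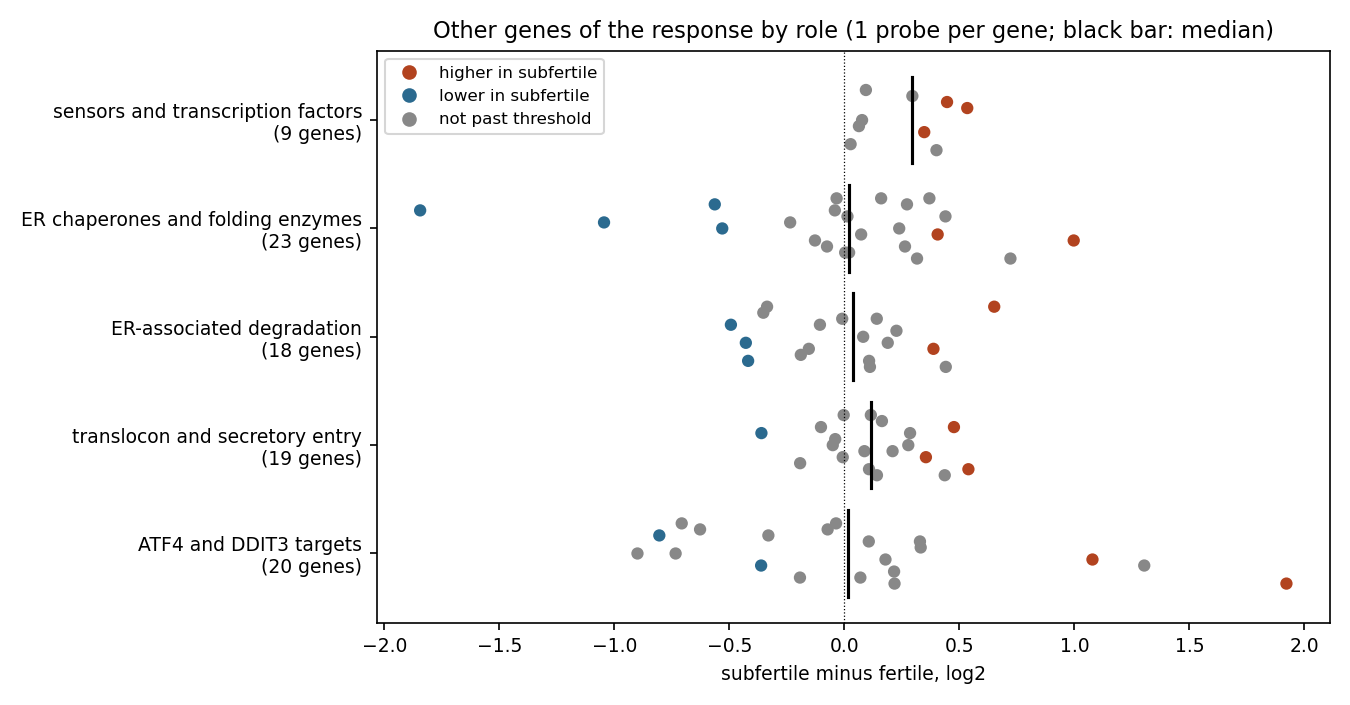
Difference of each of 89 further genes, subfertile minus fertile on the log2 scale (x axis), by role (y axis), with 1 probe for each gene and a black bar at the median of each role. Orange marks the 12 genes that rose and blue the 10 that fell, and the 9 tested sensor and transcription factor genes all lie above 0 (MBTPS1 lay below 0 under quantile normalization).

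The calls were sensitive to how the arrays were grouped. With slide entered as a random block, 4 of the 28 probes passed (CALR probes 4, 5 and 6 and HERPUD1 probe 1), and over the array 3670 of 31876 probes passed. With scan day as the block, limma called 0 of the 28 probes (10 at an unadjusted p below 0.05, all higher) and 975 over the array. The subfertile arrays shared a single scan day, so that this fit cannot tell day from group and its loss of calls decides nothing. No known slide held both groups, so the slide fit cannot tell slide from group either. The calls it kept are not thereby separated from slide. With epithelial minus stromal marker level as a covariate, 0 of the 28 were higher and 1 was lower, PDIA4 probe 1 (unadjusted, 1 higher and 3 lower), the median of the 28 was 0.05, and 1296 probes passed over the array. Since the epithelial marker level did not overlap between the groups, that covariate and group cannot be told apart in these cows. CALR probes 2, 4, 5 and 6 and HERPUD1 probe 1 kept their calls without any single cow.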

How the data were processed

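The members and gene lists were chosen with earlier results of these data known. Total RNA from 11 endometrial biopsies was labelled with Cy3 and hybridised to 1-colour Agilent bovine arrays, 1 for each cow, per the labels' protocols. The cows are separate animals with 1 array each, so the spread behind the p-values mixes cow, slide and array. The main fit treated the arrays as independent. The correlation that limma estimated between arrays of a block was 0.45 for slide and 0.31 for scan day. The submitters' processing notes name Feature Extraction 10.5.1.1. The intensity values of the deposited scanner files cover 45220 spots an array and include a processed signal that is already background-corrected. A table of log2 values by the authors was deposited too. Its direction is that of the signal, its values are centred for each probe with column medians from -0.08 to 0.09, and relative to fertile cow 2 it lay within 0.01 of the scanner values for 100% of probes on every other array except fertile cow 1 (17.0%), whose column differs for a reason not given. Its scaling was not tested.

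Names came from the scanner files by probe, without the file of fertile cow 6, whose header is missing and whose gene names are out of register. For genes outside the 10, RefSeq names of assembly ARS-UCD2.0 were used: 20595 probes were named by accession, 10745 by current symbol, 376 by older symbol, and 11937 kept the file's name. Coordinates are those of the array annotation, build Btau_3.1. Control and outlier spots (1 to 156 an array) were left out, and 0 non-control spots were saturated. The log2 processed signal minus the 75th percentile of each array was fitted in R 4.3.3 by limma 3.58.1 (lmFit, eBayes), over 31876 probes well above background on at least 5 arrays, whichever group, at an adjusted p of 0.05. All 10 members are given with every probe. Of the lists, ERN1 and EIF2AK3 and the 4 genes of smallest p in each are named, and MBTPS1, chosen after its values were seen. Marker genes appear as counts, apart from 2 without a probe. In data simulated from these 31876 probes, 100 were given a 2-fold and 100 a 4-fold change, and 63% and 95% of them were called. Of 162 calls 4 were false. No other probe was changed and no slide or day effect was simulated, while 22.2% of probes passed in the real data. These rates therefore do not carry over to the calls above.

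Slides and scan days came from file headers: 6 slides and 4 days were known, none with both groups, and fertile cow 6 was given its own. Other settings were normexp (offset 50), quantile and median scaling, the authors' table, other filters, blocks for slide, scan day or replicate number, a trended robust variance, array weights, a marker covariate, a threshold of 0.01, gene means and leaving out each cow. Promoters and promoter motifs were not analysed here.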

Additional observations from a re-analysis of the deposited data

Results flagged for a closer look

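In 4 of the 56 probe and group combinations of the 28 probes, 1 cow lay far from the others of its group by Dixon's test at the 95% level, and chance flags about 1 in 20 groups. All 4 were fertile cows. Fertile cow 4 measured 3.28 at PDIA4 probe 3, with the next fertile cow at 2.86. Fertile cow 6 measured 2.73 at the DNAJB9 probe, with the next at 2.08, and 1.57 at HERPUD1 probe 3, with the next at 0.70. Fertile cow 1 measured -1.62 at ATF4 probe 2, the lowest of its group, with the next at -1.39. None of these 4 probes passed the threshold between the groups with all cows.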

How the results depend on the processing

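The count of 10 member probes higher in subfertile cows was 13 with normexp, 7 with quantile normalization, 5 with median centring, 4 with a slide block, 0 with a scan day block, 0 with the marker covariate and 4 at an adjusted p below 0.01. Member probes lower were 2 with quantile normalization (HSPA5 probes 3 and 4), 1 with array weights and 1 with the covariate. The median of the 28 was 0.10 with quantile normalization and 0.054 with the covariate. Over the array 17081 probes passed with normexp, 12179 without the filter, 3670 with slide, 975 with scan day and 1296 with the covariate. Probes higher over the array numbered 4715 in the main fit, 14919 with normexp, 3243 with quantile normalization and 3202 with median centring. Probes lower numbered 2351, 2162, 3146 and 3396 in the same order. The array's count at an adjusted p below 0.01 is not given here. Normexp moved the median of all probes to 0.33, against 0.07. The share of calls that were higher was 66.7%, against 87.3% with normexp, 50.8% with quantile normalization, 48.5% with median centring, 79.2% without the filter, 74.0% with slide and 80.4% with scan day.

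Of the 89 further genes, higher and lower calls numbered 5 and 14 with quantile normalization, 5 and 14 with median centring, 18 and 17 with normexp, 4 and 4 with slide, 0 and 0 with scan day (limma; 12 and 10 at an unadjusted p below 0.05), 0 and 1 with the covariate (8 and 18 unadjusted) and 2 and 4 at an adjusted p below 0.01, and 2 were lower by the mean of all probes of a gene. The cause of these shifts was not tested.

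Same-numbered cows were not paired: the correlations of their deviations for numbers 1 to 5 were -0.21, 0.17, 0.22, -0.04 and -0.17. With the replicate block 6 member probes were higher, 4761 passed over the array, and 6 further genes were higher and 6 lower.

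Leaving out each cow gave 5 to 10 member probes higher, 0 to 1 lower, a median of 0.25 to 0.36, 4526 to 7297 probes over the array, and 4 to 13 further genes higher and 6 to 11 lower. Member probes higher were 6 without subfertile cow 1 and 5 without subfertile cow 4, and 1 was lower without fertile cow 3 or subfertile cow 1. Further genes higher were 6, 7, 7 and 4 without fertile cow 1, fertile cow 3, subfertile cow 1 and subfertile cow 2. Further genes lower were 6 without fertile cow 4 or subfertile cow 2, and without subfertile cow 2 4526 probes passed.

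Some differences near 0 changed sign. With normexp HSPA5 probe 2 was -0.047, PDIA4 probe 3 -0.078, DNAJB9 -0.11, ATF6 probe 2 0.95 and ATF4 probe 2 0.13. With quantile normalization HSPA5 probe 2 was -0.0264, PDIA4 probe 3 -0.091, DNAJB9 -0.060, XBP1 probe 2 -0.0262, and the 5′-most minus 3′-most probe contrasts of ATF4 and CALR 0.12 and 0.26. With median centring HSPA5 probe 2 was -0.077, PDIA4 probe 3 -0.069 and DNAJB9 -0.086. DNAJB9 was -0.020 with scan day and -0.000505 with array weights, HSPA5 probe 2 was -0.044 with the replicate block and -0.074 with array weights, and the DDIT3 contrast was -0.014 with slide. With the covariate HSPA5 probe 2 was -0.21, HSP90B1 -0.0105, CALR probe 3 -0.10, PDIA4 probe 3 -0.18, DNAJB9 -0.70, XBP1 probe 2 -0.30 and XBP1 probe 3 -0.11. Leaving out each cow, HSPA5 probe 2 ranged from -0.0885 to 0.0896, PDIA4 probe 3 from -0.0549 to 0.10, DNAJB9 from -0.15 to 0.13, ATF6 probe 2 from -0.27 to 0.0314, ATF4 probe 2 from -0.0982 to 0.0300 and the DDIT3 contrast from -0.0156 to 0.0879. The authors' table moved no call of a member probe.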
